A study of Rattus with 6 samples.

Results

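The ADAM, ADAMTS and ADAMTS-like genes were described in rat bone marrow mesenchymal stem cells (BMSC) cultured with or without dexamethasone, a synthetic glucocorticoid. Members were taken by gene symbol: Adam, Adamts or Adamtsl followed by a number. The rule found 49 of the 30211 genes counted, namely 26 ADAM, 19 ADAMTS and 4 ADAMTS-like genes. The labels describe wild-type BMSC from rat bone collected at day 4, as 3 control libraries and 3 libraries from cells given dexamethasone at 100 uM. The dose is that of the labels, no vehicle is described for the controls, and all 6 libraries carry the treatment tag DEX, so titles and descriptions set the groups. Nothing in the labels ties the replicates to separate cultures or animals, and p-values therefore reflect the spread between these libraries alone, which may be technical.

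ADAM proteins are membrane-anchored proteins with a metalloprotease and a disintegrin domain, and those with an active protease shed the outer parts of growth factors, cytokines, adhesion molecules and receptors from the cell surface. ADAMTS proteins are secreted relatives with thrombospondin repeats that cut the extracellular matrix: some cleave aggrecan and versican, others trim procollagens or cut glycoproteins. ADAMTS-like proteins have the thrombospondin repeats but no protease domain, and several of them bind fibrillin microfibrils. In skeletal tissue these proteins remodel cartilage and pericellular matrix, and tissue inhibitors of metalloproteinases (TIMPs) hold the proteases in check.

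Libraries held 34835072 to 41676315 counts. Levels are CPM, read counts divided by the library size after TMM normalization. Fkbp5, a target of the glucocorticoid receptor, had 69.0, 71.0 and 69.3 CPM in the controls and 1290, 1390 and 1430 CPM in the libraries labelled dexamethasone. Of 7 stromal markers analysed all 7 were tested, and their summed level was 2585 to 2618 CPM in the controls and 1853 to 1893 CPM under dexamethasone. Of the 7, 3 rose (led by Pdgfra, 598 ± 2.59 to 965 ± 20.2 CPM, SD, n = 3), 3 fell (led by Prrx1, 727 ± 19.2 to 75.6 ± 2.51 CPM) and 1 was not called. Of 3 tested osteoblast markers of 6, Spp1 rose (440.2 ± 4.99 to 602 ± 21.8 CPM), Runx2 fell (31.3 ± 1.92 to 11.7 ± 1.14 CPM) and Alpl was not called, and Sp7 was at 0 counts. Summed macrophage markers stood at 10.5 to 11.9 and 8.73 to 9.31 CPM, with Adgre1 and Tyrobp at 0 counts. Among 5 tested of 8 there were 0 rises and 2 falls (Cd68 and Cd53). Most of the sum was Cd14 (7.27 ± 0.47 and 7.65 ± 0.19 CPM), which was not called. Summed endothelial markers stood at 0.600 to 1.09 and 1.42 to 1.72 CPM, with Emcn at 0 counts. The sum was mostly Tek, the only 1 of 5 tested, which rose (0.782 ± 0.245 to 1.37 ± 0.22 CPM). Osteoclast markers summed to 31.3 to 33.9 and 0.539 to 0.877 CPM, with Acp5, Ocstamp and Dcstamp at 0 counts. In the controls this sum was mostly Mmp9 (31.7 ± 1.47 CPM), which stood at 0.296 ± 0.158 CPM under dexamethasone, where Ctsk was at 0.414 ± 0.089 CPM. The part of these markers in the results below was not tested. In bulk RNA, fewer cells of a type and less RNA per cell cannot be told apart.

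The family changed in both directions, and 6 of its 7 calls of at least 4-fold were in the secreted ADAMTS and ADAMTS-like genes. Of these 6, Adamts9, Adamtsl2 and Adamtsl3 reached the count minimum of the filter in 1 group alone. Of the 49 members, 29 were tested and 20 were too low to test, among them 12 with no count in any library. Of the 29, 9 rose, 15 fell and 5 were not called. A gene was called when its p from edgeR's quasi-likelihood test, adjusted by Benjamini-Hochberg over all 14111 genes tested, was under 0.05. Over all genes tested 64.0% were called, 32.3% as rises and 31.7% as falls, so the 24 calls in the family say little on their own. Calls of at least 2-fold numbered 13 of 29 in the family, against 15.6% of all genes tested, and those of at least 4-fold 7 of 29, against 5.90%. The filter admits genes that reach the count minimum in 1 group alone, which favours genes that differ, so the 22 members that reached it in both groups were also read alone. Of the others, Adamts9, Adamtsl2 and Adamtsl3 entered through the group where they were higher and were called. Adam8, Adam11 and Adam32 entered through 1 group and were not called. Adam4 reached the minimum in neither group by itself and was called. Among the 22, 20 were called, against 65.2% of such genes, and 9 changed at least 2-fold, against 12.5%. Their median absolute log2 fold change was 0.74, against 0.29 over all genes that reached the minimum in both groups. The 22 had a median log2 fold change of -0.23. The same median over all such genes was -0.0011.

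By subfamily, 3 ADAM genes rose, 6 fell and 3 were not called among 12 tested. In the ADAMTS subfamily 4 rose, 7 fell and 2 were not called among 13 tested. All 4 ADAMTS-like genes were tested, and 2 rose and 2 fell. At least 2-fold changes were 3 of 12, 7 of 13 and 3 of 4, against 15.6% of all genes tested. Among members that reached the count minimum in both groups they were 2 of 8, 6 of 12 and 1 of 2, against 12.5% of such genes. The biological coefficient of variation was also set to 0.2, in place of the 3.66% estimated from these libraries, with a likelihood-ratio test. At that setting 4 ADAM, 10 ADAMTS and 3 ADAMTS-like genes passed, against 26.2% of all genes. It was not stricter for every gene. The adjusted p of Adam4 was 0.00461 there, against 0.0287 in the quasi-likelihood test. Tested against a fold of 1.5, 3 ADAM, 9 ADAMTS and 3 ADAMTS-like genes passed, against 20.0% of all genes.

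**Figure D1:**
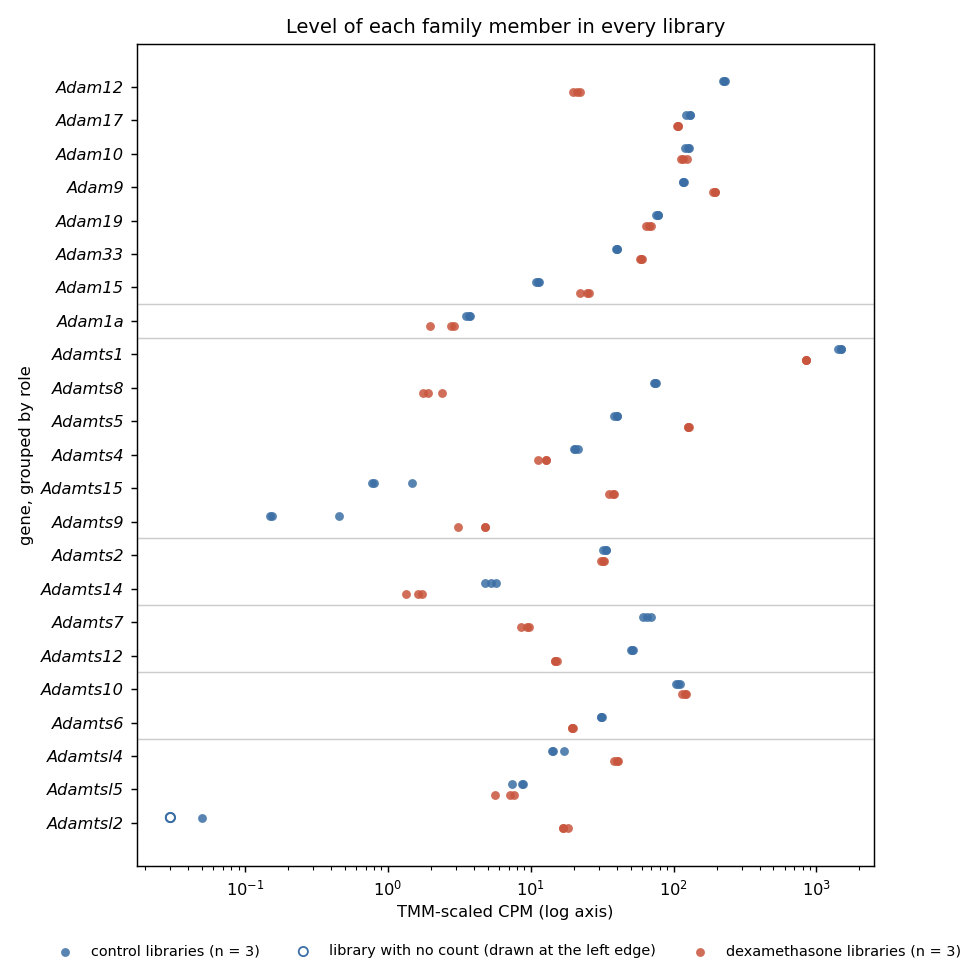
TMM-scaled CPM on a log axis for the 23 members with at least 1 CPM on average in either group, 1 point per library (3 control in blue, 3 dexamethasone in red), with horizontal lines between roles. Adamts1 is the most counted member in all 6 libraries, and between the groups Adamts8 falls while Adamts15 rises.

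Levels of different genes are ranked and summed per kilobase of exon, as CPM per kilobase. Among the ADAM proteases the leading gene changed from Adam12 to Adam9. Adam12, a sheddase of mesenchymal cells that cuts insulin-like growth factor binding proteins and heparin-binding EGF (chromosome 1, 205956342 to 206282575), had 229, 225 and 221 CPM in the controls and 21.96, 19.8 and 21.1 CPM under dexamethasone. Every dexamethasone library lay far below every control. The fall was 10.7-fold, a log2 fold change of -3.42 ± 0.046 (SE, adjusted p = 2.89e-46, edgeR). Adam9, a sheddase with broad expression (chromosome 16, 71810377 to 71887926), had 117, 116 and 115 CPM in the controls and 196, 188 and 194 CPM under dexamethasone. It rose by 0.73 ± 0.020 on the log2 scale (adjusted p = 2.22e-24). Per kilobase, Adam12 made up 35.6% ± 0.17 (SD, n = 3) of the summed ADAM level in the controls and 4.09% ± 0.23 under dexamethasone. The share of Adam9 was 17.8% ± 0.19 and 36.4% ± 0.92.

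Adam15 and Adam33 rose beside Adam9. Adam15, whose disintegrin domain binds integrins (chromosome 2, 188661699 to 188672247), had 11.4, 11.2 and 10.9 CPM in the controls and 22.1, 25.5 and 24.8 CPM under dexamethasone. The groups were apart by more than their spread, with a log2 fold change of 1.11 ± 0.065 (SE, adjusted p = 9.36e-18). Its exons overlap AC098750.3, so reads of that gene and of Adam15 could be split between them. Adam33, a protease of mesenchymal cells known from airway studies (chromosome 3, 123595560 to 123607352), had 39.4, 40.4 and 40.4 CPM and, under dexamethasone, 59.6, 58.9 and 57.8 CPM. It rose by 0.55 ± 0.018 on the log2 scale (adjusted p = 4.53e-15), a call lost with the coefficient of variation at 0.2 (adjusted p = 0.0711).

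The 2 main sheddases changed little. Adam17, the converting enzyme of tumour necrosis factor and of ligands of the EGF receptor, had 130, 129 and 123 CPM in the controls and 105, 108 and 107 CPM under dexamethasone, a log2 fold change of -0.25 ± 0.027 (SE, adjusted p = 9.79e-09). Its groups did not overlap, while those of Adam10 did. Adam10, which makes the first membrane-proximal cut in activated Notch receptors, had 126, 128 and 120 CPM against 116, 123 and 113 CPM. Its log2 fold change was -0.08 ± 0.046 (adjusted p = 0.0325), and the call was lost with library size alone (adjusted p = 0.241), in DESeq2 (0.0784) and without control replicate 1 (0.0801), control replicate 2 (0.139), dexamethasone replicate 1 (0.111) or dexamethasone replicate 3 (0.229), and with the coefficient of variation at 0.2 (0.866). Adam19, a sheddase of neuregulins, had 78.0, 75.7 and 77.2 CPM against 64.2, 69.0 and 67.1 CPM. It fell by 0.21 ± 0.033 on the log2 scale (adjusted p = 1.03e-05). With the coefficient of variation at 0.2 neither Adam17 (adjusted p = 0.523) nor Adam19 (0.626) was called.

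Other ADAM genes were low or silent. Adam1a, which encodes the alpha subunit of the sperm protein fertilin, had 3.53, 3.75 and 3.67 CPM in the controls and 2.89, 1.99 and 2.78 CPM under dexamethasone. It fell by 0.51 ± 0.17 on the log2 scale (SE, adjusted p = 0.00561), a call lost without dexamethasone replicate 2 (0.0604) and with the coefficient of variation at 0.2 (0.146). Adam8, a protease best known in myeloid cells, had 0.320 ± 0.182 CPM in the controls against 0.511 ± 0.063 (SD, n = 3) and was not called (adjusted p = 0.169), except without control replicate 3 (adjusted p = 0.0397). Adam11 and Adam32, which lack an active protease, were not called either (adjusted p = 0.2001 and 0.733, edgeR). Adam4, a testis gene, held 19, 20 and 10 counts in the controls and 0, 12 and 5 under dexamethasone. The groups overlapped, and its call (log2 fold change -1.49 ± 0.90, adjusted p = 0.0287) was lost in DESeq2 (0.115) and without control replicate 1 (0.0888), control replicate 2 (0.0996), dexamethasone replicate 1 (0.183) or dexamethasone replicate 3 (0.0959). The log2 fold change of Adam4 was -0.87 without dexamethasone replicate 1, -2.71 without dexamethasone replicate 2 and -2.38 in limma-voom. Of the 14 untested ADAM genes, 10 had no count in any library, and the others were Adam23, Adam28, Adam30 and Adam2 with 46, 13, 8 and 2 counts over all 6 libraries.

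**Figure D2:**
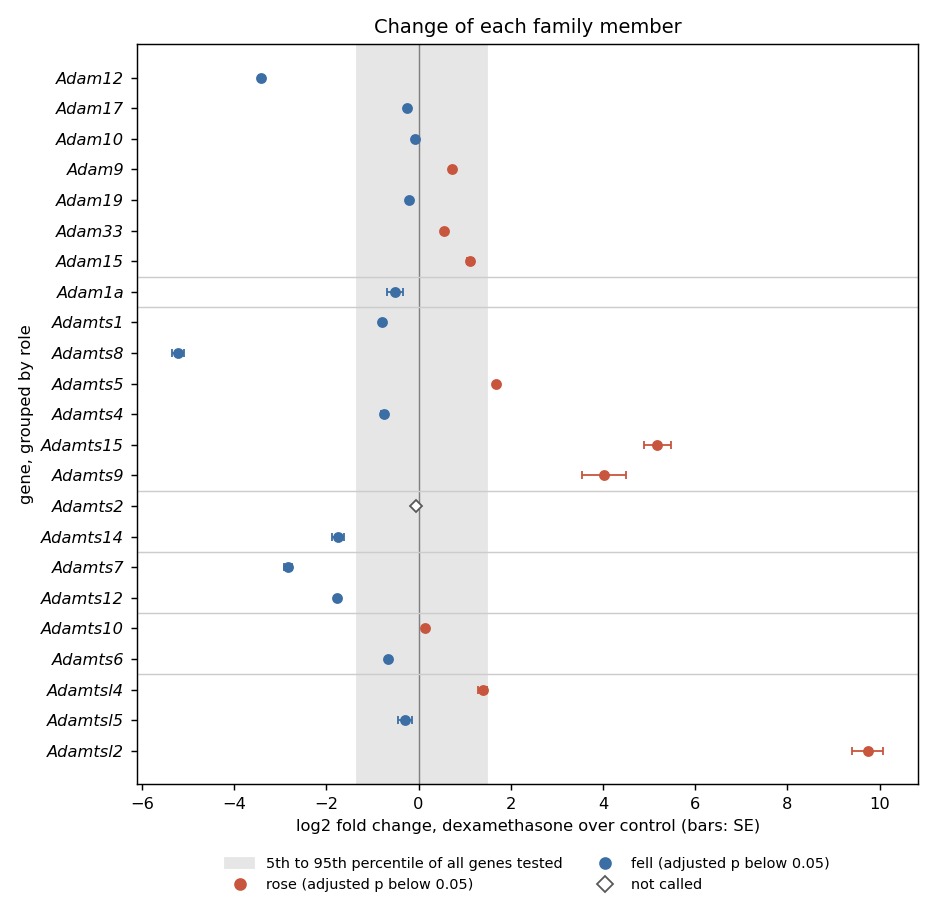
Log2 fold change, dexamethasone over control, of the same 23 members with bars for the SE, coloured by direction of the call, and a grey band from the 5th to the 95th percentile of all genes tested (-1.33 to 1.48). Adam12, Adamts7, Adamts8, Adamts12, Adamts14, Adamts5, Adamts9, Adamts15 and Adamtsl2 lie outside the band, and Adamts2 is the member that was not called.

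The proteoglycanases, the ADAMTS proteases that cut aggrecan and versican, changed in both directions. Of 7, 6 were tested, 3 rose and 3 fell. Among the 5 that reached the count minimum in both groups, which leaves out Adamts9, 2 rose and 3 fell. None of the 6 had overlapping groups. Over all genes tested 66.9% had groups that did not overlap. Adamts1 (chromosome 11, 25342126 to 25350974), a protease of versican and aggrecan, was the most abundant member of the whole family, with 1483, 1477 and 1422 CPM in the controls and 842, 851 and 841 CPM under dexamethasone. It fell 1.73-fold, a log2 fold change of -0.79 ± 0.020 (SE, adjusted p = 1.35e-29). Per kilobase it made up 50.9% of the summed family level in the controls and 40.5% under dexamethasone.

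Adamts5 (chromosome 11, 25410975 to 25456836), a main aggrecanase of cartilage, went the other way. It had 40.3, 40.0 and 38.3 CPM in the controls and 127, 125 and 126 CPM under dexamethasone, 3.20-fold higher (log2 fold change 1.68 ± 0.024, SE, adjusted p = 3.63e-35). Adamts4, the other main aggrecanase of cartilage (chromosome 13, 89622632 to 89634419), had 20.02, 21.3 and 20.4 CPM, then 12.8, 12.8 and 11.2 CPM under dexamethasone. It fell by 0.75 ± 0.071 on the log2 scale (adjusted p = 4.35e-12). Per kilobase, Adamts5 stood 3.41-fold above Adamts4 in the controls and 18.3-fold above it under dexamethasone.

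Adamts8 and Adamts15 changed by similar folds in opposite directions. Adamts8 (chromosome 8, 32018560 to 32037531) had 74.1, 75.2 and 73.3 CPM in the controls and 1.75, 2.38 and 1.92 CPM under dexamethasone, 37.0-fold lower (log2 fold change -5.21 ± 0.13, SE, adjusted p = 1.04e-42). Adamts15 (chromosome 8, 31977001 to 32000378) had 0.778, 1.47 and 0.7996 CPM in the controls and 37.4, 38.4 and 35.2 CPM under dexamethasone, 36.3-fold higher (log2 fold change 5.18 ± 0.29, adjusted p = 1.64e-30). Both encode proteases able to cut proteoglycans, and in both genes the libraries of a group lay close together beside the gap between groups. Adamts9, a versican-cutting protease (chromosome 4, 124660262 to 124858250), rose from a very low level. It held 6, 18 and 6 counts in the controls and 130, 168 and 193 under dexamethasone, or 0.254 ± 0.175 and 4.20 ± 0.97 CPM (SD, n = 3), with a log2 fold change of 4.03 ± 0.49 (SE, adjusted p = 1.40e-14). Without control replicate 2, which held 18 of the 30 control counts, the log2 fold change of Adamts9 was 4.75. It reached the count minimum under dexamethasone and not in the controls. Adamts20, the last of the group, held 2 and 9 counts in the groups and was not tested.

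The summed proteoglycanase level per kilobase followed its largest member. It was 373 ± 8.26 CPM per kilobase in the controls and 241 ± 1.60 under dexamethasone (SD, n = 3). Without Adamts1 the sum was 40.8 ± 0.74 and 49.2 ± 0.38, so the other 6 together were higher under dexamethasone, though not each of them. In each of these sums the 3 libraries of a group lay on 1 side of the 3 of the other. Per kilobase, Adamts5 went from 12.4 ± 0.35 to 39.7 ± 0.27 and Adamts15 from 0.168 ± 0.065 to 6.10 ± 0.27. Adamts8 went from 24.6 ± 0.31 to 0.668 ± 0.108 and Adamts4 from 3.65 ± 0.11 to 2.17 ± 0.17. Within the proteoglycanases, Adamts5 went from 3.33% ± 0.020 to 16.5% ± 0.20 of the sum, Adamts8 from 6.59% ± 0.10 to 0.277% ± 0.043, and Adamts15 from 0.045% ± 0.017 to 2.53% ± 0.097.

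**Figure D3:**
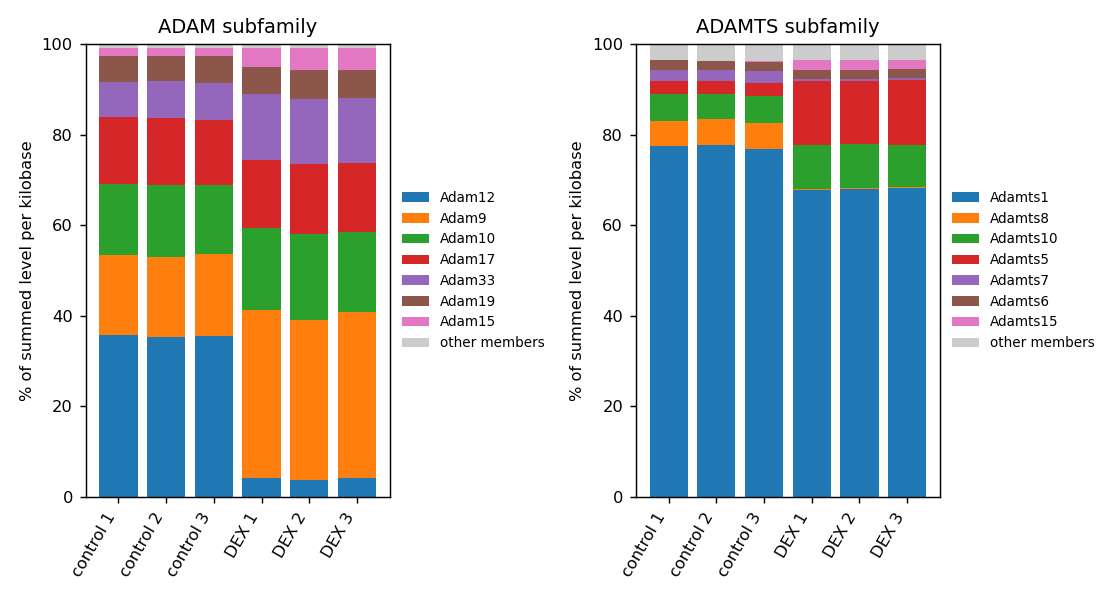
Share of each member in the summed level per kilobase of its subfamily, in percent, 1 stacked bar per library (3 control, 3 DEX), for ADAM on the left and ADAMTS on the right, with members under 2% in both groups pooled in grey. Adam12 shrinks from 35.6% to 4.09% of the ADAM sum, and Adamts5 grows from 2.89% to 14.1% of the ADAMTS sum.

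Of the proteoglycanases that changed in opposite directions, Adamts5 and Adamts4 lie on different chromosomes, while 2 other pairs are neighbours. These pairs are described because they are adjacent and changed in opposite directions, so no rule about neighbours is drawn from them. Adamts15 (minus strand) and Adamts8 (plus strand) lie 18181 bases apart with their starts facing each other, and Adamts1 and Adamts5 (both on the minus strand) lie 60000 bases apart. No other gene of the table starts between the partners of either pair, and none of the 4 shares an exon with another gene. The log2 ratio of Adamts15 to Adamts8 in CPM was -6.57, -5.68 and -6.52 in the controls and 4.42, 4.01 and 4.20 under dexamethasone. The log2 ratio of Adamts1 to Adamts5 in CPM was 5.20, 5.21 and 5.22 in the controls and 2.73, 2.76 and 2.73 under dexamethasone. These ratios are not per kilobase and are read between groups, not between genes. In both pairs the libraries of the groups did not overlap (two-sided exact permutation p = 0.1, the smallest that 3 against 3 libraries can give). That outcome was fixed beforehand, because the partners were already apart between groups in opposite directions, so nothing is drawn from it. Of 8100 pairs of adjacent tested genes within 50 kb, 16.6% were called in opposite directions, and 0.494% (40 pairs) were so with both changes at least 2-fold, among them Adamts15 and Adamts8. Within 100 kb, 17.0% of 9623 pairs were called in opposite directions, as were Adamts1 and Adamts5, and 0.592% with both at least 2-fold. Adamts13 and Adamtsl2 lie 66339 bases apart on chromosome 3 with 4 genes between them, and Adamts13 was not called.

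**Figure D4:**
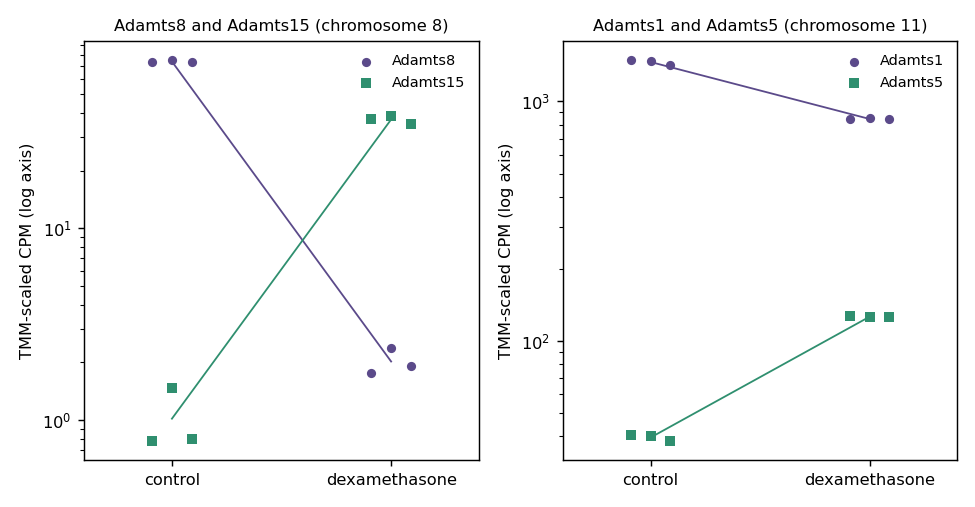
TMM-scaled CPM on a log axis for 2 pairs of neighbouring genes, with 3 control and 3 dexamethasone libraries as points and a line between the group means. On the left the mean of Adamts8 falls from 74.2 to 2.02 CPM and that of Adamts15 rises from 1.02 to 37.0 CPM, and on the right Adamts1 falls while Adamts5 rises.

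Adamts7 and Adamts12, which encode proteases that cut cartilage oligomeric matrix protein (COMP), fell. Adamts7 (chromosome 8, 97535777 to 97575655) had 65.3, 60.9 and 69.5 CPM in the controls and 8.48, 9.67 and 9.43 CPM under dexamethasone, 7.11-fold lower (log2 fold change -2.83 ± 0.080, SE, adjusted p = 1.45e-35). Adamts12 (chromosome 2, 61039053 to 61340697) had 50.4, 51.1 and 52.3 CPM, then 14.9, 15.3 and 14.8 CPM, 3.42-fold lower (log2 fold change -1.77 ± 0.023, adjusted p = 6.83e-30). Their sum per kilobase was 16.6 ± 0.78 CPM per kilobase in the controls and 3.25 ± 0.12 under dexamethasone (SD, n = 3), the lowest ratio among the summed groups of ADAMTS roles.

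The procollagen N-proteinases remove the amino-terminal propeptide of fibrillar procollagens. Adamts2, the main one of skin and bone (chromosome 10, 36098051 to 36304409), had 33.6, 32.1 and 33.7 CPM in the controls and 32.4, 30.9 and 32.2 CPM under dexamethasone. The groups overlapped, and with a log2 fold change of -0.06 ± 0.031 (SE) it was not called (adjusted p = 0.366, edgeR). Adamts14 (chromosome 20, 30812353 to 30888751) had 4.77, 5.30 and 5.70 CPM, then 1.73, 1.62 and 1.33 CPM, a log2 fold change of -1.75 ± 0.13 (adjusted p = 4.02e-13). Adamts3 held 2 counts in the controls and 0 under dexamethasone and was not tested.

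Adamts6 and Adamts10, a related pair linked to fibrillin microfibrils, changed in opposite directions, and the change of Adamts10 was small. Adamts10 (chromosome 7, 18409147 to 18439012) had 111, 104 and 108 CPM in the controls and 122, 121 and 115 CPM under dexamethasone, a log2 fold change of 0.15 ± 0.039 (SE, adjusted p = 2.56e-04). That call was lost with the coefficient of variation at 0.2 (adjusted p = 0.742). Adamts6 (chromosome 2, 34374158 to 34586755) had 31.5, 31.2 and 30.9 CPM, then 19.8, 19.5 and 19.5 CPM. It fell by 0.67 ± 0.012 on the log2 scale (adjusted p = 8.16e-14), but not against a fold of 1.5 (adjusted p = 0.103). Adamts13, the protease of von Willebrand factor, stood at 0.431 ± 0.148 and 0.465 ± 0.010 CPM (SD, n = 3) and was not called (adjusted p = 0.828), and its exons overlap Cacfd1. Adamts16 held 7, 15 and 14 counts in the controls and none under dexamethasone, at least 6.0-fold lower by a floor of 6 counts over the group, and was below the minimum for the test. Adamts17 held 11 and 4 counts in the groups, and Adamts18 and Adamts19 had none.

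The ADAMTS-like genes held the largest rise of the family. Adamtsl2, a microfibril-binding protein mutated in geleophysic dysplasia (chromosome 3, 5624506 to 5654910), held 0, 0 and 2 counts in the controls and 763, 589 and 684 under dexamethasone. That is 18.1, 16.7 and 16.8 CPM under dexamethasone, a ratio of 1018 (95% exact binomial interval 182 to 40242, for counting error only, adjusted p = 5.76e-33, edgeR). Adamtsl4, a fibrillin-1-binding protein of the eye's zonule (chromosome 2, 197803584 to 197814808), had 17.1, 14.1 and 14.3 CPM in the controls and 38.3, 40.1 and 40.8 CPM under dexamethasone. It rose 2.62-fold, a log2 fold change of 1.39 ± 0.093 (SE, adjusted p = 4.68e-23).

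The other ADAMTS-like genes fell. Adamtsl3 (chromosome 1) held 39, 18 and 32 counts in the controls and 2, 0 and 0 under dexamethasone, 44.5-fold lower (95% exact binomial interval of the ratio 7.68 to 1817, adjusted p = 1.19e-08). Adamtsl2 and Adamtsl3 each reached the count minimum in 1 group alone. Adamtsl5 (chromosome 7, 12229379 to 12234576) had 8.87, 8.64 and 7.397 CPM, then 7.15, 7.60 and 5.64 CPM, and the groups overlapped. Its call (log2 fold change -0.29 ± 0.15, SE, adjusted p = 0.0191) was lost in DESeq2 (0.0725) and without control replicate 1 (0.0824), control replicate 2 (0.0647) or dexamethasone replicate 3 (0.214), and with the coefficient of variation at 0.2 (0.468), and its exons overlap AC120291.3. Summed per kilobase, the subfamily stood at 11.7 ± 1.04 CPM per kilobase in the controls and 20.7 ± 0.85 under dexamethasone (SD, n = 3). Adamtsl5 held 67.7% ± 2.34 of that sum in the controls and 31.1% ± 3.51 under dexamethasone, while Adamtsl2 held 0.043% ± 0.074 and 22.6% ± 1.22.

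The order of levels per kilobase shifted below Adamts1, which was first in both groups. In the controls it was followed by Adam12 at 75.1 ± 1.29 CPM per kilobase, Adam9 at 37.5 ± 0.33, Adam10 at 32.9 ± 1.06 and Adam17 at 31.1 ± 0.92. The highest library of Adam17 and the lowest of Adam10 both rounded to 31.7 CPM per kilobase. Under dexamethasone the genes after Adamts1 were Adam9 at 62.2 ± 1.37, Adamts5 at 39.7 ± 0.27, Adam10 at 31.1 ± 1.39 and Adamts10 at 27.2 ± 0.85. Adam17 came next, and its libraries overlapped those of Adamts10. Adam12 came at rank 11 under dexamethasone, where its libraries overlapped those of Adam15 above it and Adamtsl5 below it. Adamts8 went from rank 6, overlapping Adamts10, to rank 21, overlapping Adam1a above it and Adamts9 below it. Adamts5 went from rank 9, overlapping Adam19, to rank 3.

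Genes that act with the family were counted from lists of inhibitors, activators and substrates. Beside the counts of each list stand the shares of all genes tested, 32.3% rises and 31.7% falls. Among 5 tested inhibitors of 6, 3 rose and 2 fell. Of the rises, Timp4 (0.085 ± 0.079 to 1.73 ± 0.35 CPM, SD, n = 3) and A2m (0.051 ± 0.052 to 3.27 ± 0.42 CPM) could enter the test through the dexamethasone libraries alone. Timp1 fell from 1335 ± 69.2 to 651 ± 21.0 CPM. Timp1, Timp4 and A2m were named after their values were seen. Timp2 was the largest rise at 5 CPM or more (378 ± 7.06 to 994 ± 12.5 CPM, SD, n = 3), and Reck, a membrane-anchored inhibitor, the largest fall (90.7 ± 0.38 to 36.6 ± 3.03 CPM). Timp3, the TIMP best known for inhibiting ADAMTS4 and ADAMTS5 and named here after its value was seen, held 10 counts in all 6 libraries together and was not tested. Of 10 tested partners and activators of ADAM proteases, 5 rose, 4 fell and 1 was not called, with a median log2 fold change of 0.16. Furin, a proprotein convertase that removes the prodomains of these proteases, fell from 118 ± 3.54 to 44.96 ± 1.59 CPM. Frmd8, a partner of the iRhom proteins that escort ADAM17, rose from 9.76 ± 0.71 to 15.0 ± 0.81 CPM. The iRhom genes did not rise with it. Rhbdf2 fell from 13.0 ± 0.74 to 6.17 ± 0.52 CPM, and Rhbdf1 was not called (29.6 ± 1.16 and 30.8 ± 0.92 CPM).

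Falls outnumbered rises among the substrates. Of 24 tested membrane proteins shed by ADAM proteases, 7 rose, 13 fell and 4 were not called. Rises were 32.3% and falls 31.7% of all genes tested. The median log2 fold change of the 24 was -0.48. Cx3cl1, a membrane-bound chemokine, fell from 61.2 ± 1.56 to 6.57 ± 1.01 CPM (SD, n = 3), and Jag1, a Notch ligand, rose from 5.55 ± 0.10 to 10.7 ± 0.57 CPM. All 6 tested proteoglycans among the ADAMTS substrates fell, with a median of -1.90, against a median of -0.00019 over all genes tested. Ncan, 1 of the 6, had 0.611 ± 0.079 CPM in the controls and 0 under dexamethasone. It could enter the test through the controls alone, and its log2 fold change of -7.59 lowers the median. Bgn, which encodes biglycan, was the largest fall at 5 CPM or more, from 462 ± 5.71 to 161 ± 4.06 CPM. Of these, Vcan, which encodes versican and was named after its value was seen, stood at 2850 ± 22.01 and 1709 ± 2.37 CPM. Comp held 0.169 ± 0.063 and 0.027 ± 0.028 CPM and was not tested.

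Among 4 tested procollagen chains, 2 rose and 2 fell, led by Col3a1 (1996 ± 34.0 to 4346 ± 125 CPM) and Col1a1 (1138 ± 16.4 to 665 ± 8.43 CPM). Of 6 tested microfibril partners 0 rose, 5 fell and 1 was not called, where 31.7% of all genes tested fell. Fbn1, which encodes fibrillin-1, fell most (log2 fold change -2.30 ± 0.016, SE). Exons of Fbn1 overlap AABR07053635.1 and those of Col3a1 AABR07067556.1. Of the 3 genes for secretion and uptake, Pofut2 and Lrp1 fell and B3glct was not called. Lrp1, an endocytic receptor that clears ADAMTS5 and other secreted proteases, went from 4361 ± 23.5 to 2808 ± 47.5 CPM (SD, n = 3).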

How the data were processed

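Sequencing libraries of 6 samples were made from total RNA with a SMARTER mRNA kit, per the labels' protocols. The deposited values are read counts per gene in a single table with exon positions and length, per the file headers. For the aligner, counter, strand setting and rule for shared reads: not given in the sources used here. The genome build is mm10, a mouse build, per the submitters' processing notes, but the table holds rat genes: 48 of the 49 member symbols are in the rat gene table (assembly GRCr8), all 48 on the same chromosome. Coordinates are printed as the table gives them, and none was taken from that assembly.

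Genes were filtered with filterByExpr by group (count minimum 10), TMM-scaled and tested in edgeR 4.0.16 in R 4.3.3 (robust dispersions, quasi-likelihood test, no covariate, Benjamini-Hochberg). Standard errors of log2 fold changes come from log2 CPM with a prior count of 2. Low values came in steps of 2 (69.3% of values from 1 to 25 counts were even, against 50.6% of those of 1000 or more), so the floor was 6 counts, 3 read pairs, and counting intervals used counts divided by 2 and rounded up. Exon overlaps were taken from the table without regard to strand.

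Members with at least 1 CPM on average in either group are named with every library. Pathway genes are the largest called rise and fall per list at 5 CPM or more, and the others named were picked with their values known. The members, lists and alternatives were chosen with earlier results of these data known. The alternatives were library size alone, DESeq2 1.42.0, limma-voom (limma 3.58.1), no filter on low counts, each library left out, the replicate number as a block, a coefficient of variation of 0.2 and a test against a fold of 1.5. The coefficient of variation of 0.2 was used with a likelihood-ratio test in place of the quasi-likelihood test. The procedure was tested on simulated data.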

Additional observations from a re-analysis of the deposited data

How the results depend on the processing

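With the coefficient of variation set to 0.2, 3693 of all genes tested and 4 ADAM genes were called, and against a fold of 1.5 these were 2827 and 3. Of the 24 called members, 7 lost the call under the first setting and 9 under the second. Leaving out each library in turn gave 8570 to 8757 calls over all genes, 7 to 10 in ADAM, 11 to 12 in ADAMTS and 3 to 4 in ADAMTS-like. Of the 29 tested members, limma-voom, no filter on low counts and the replicate block kept every direction and call. Pairing was not supported by the data: the correlations of same-numbered libraries were 0.0026, -0.0078 and 0.020. The labels give no shared origin for equal numbers. With the replicate block 9 ADAM, 11 ADAMTS and 4 ADAMTS-like genes and 8991 genes in all were called. Adamts16, below the count minimum with all 6 libraries, was also called without the filter (adjusted p = 8.26e-06, edgeR), in DESeq2 (7.81e-05) and where leaving out a library let it through the filter (without control replicate 1 or any of the dexamethasone replicates).

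Directions reversed only for members that were not called: Adam32 without dexamethasone replicate 3 (log2 -0.086, range on leaving out each library -0.086 to 0.52) and Adamts13 without control replicate 2 (log2 -0.13, range -0.13 to 0.37). The ratio of dexamethasone to control of the summed ADAMTS6, 10, 13 and 16 to 19 genes, 0.978, was 1.004 with library size alone, and the cause was not tested. Library size alone moved the median of all genes from -0.00019 to 0.038 on the log2 scale. A gene at 0 counts in a library may stand at up to 0.142 to 0.170 CPM by the floor, so the silent members are not shown to be absent.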
